A study of Mus musculus with 14 samples.

Results

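Apolipoprotein E and 7 further genes of lipid transport (Apoe, Apod, Vldlr, Lrp1, Abca1, Abcg1, Lpl and Cd36) were examined by their symbols among the 40123 gene symbols measured in mouse retinal veins. All 8 were present, none was at 0 in any library, and all 8 passed the filter on low values, so that each was tested among 29166 genes. The study compared DBA/2J mice (9 samples), an inbred strain that lacks a working Gpnmb gene and develops inherited glaucoma, with the normotensive control strain DBA/2J-Gpnmb+/SjJ (5 samples), which carries a working Gpnmb gene on the DBA/2J background. Every mouse was 9 months old and had received an injection of sodium fluorescein (0.33 mg per g) 5 minutes before death, and each sample held the 4 major veins of 1 mouse. As background, both strains also carry the DBA/2J form of Tyrp1. Sex and eye pressure of the single mice were not given in the sources used here.

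As background, lipids move between cells and through the blood on particles that are held together by apolipoproteins. ABC transporters load cholesterol and phospholipid onto apolipoprotein E, receptors on the cell surface bind and take up the particles, and lipoprotein lipase on the vessel wall frees fatty acids from them. In the retina, Müller glia, astrocytes and microglia make apolipoprotein E, and the vessels stand between this local pool and the circulating lipoproteins.

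The deposited values, labelled as normalized signal, were taken to be estimated read counts divided by a size factor for each library. They are called scaled values here. They summed to 14836190 to 22193399 for a library, and the reads estimated behind them ranged over 8949501 to 33851405. Gpnmb, which checks the labels, had 191 ± 140 in DBA/2J veins (SD, n = 9) and 1946 ± 712 in control veins (SD, n = 5), with no overlap between the groups. The 18 pan-endothelial markers were all detected and summed to 17314 to 79711 in DBA/2J veins and to 21810 to 38587 in control veins. The vein libraries also held RNA of neighbouring cells: rod photoreceptor genes made up 3.14% to 8.33% of a DBA/2J library and 2.94% to 5.61% of a control library. The 17 lens genes summed to 2835 to 215706 in DBA/2J veins and to 1494550 to 3404480 in control veins, and all 17 were lower in DBA/2J veins. Library numbers in the labels were lower for every control than for any DBA/2J sample, so strain and library number cannot be told apart. In dissected veins, fewer cells of a type and less RNA per cell cannot be told apart either.

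Across all genes, limma with Benjamini-Hochberg adjustment called 3518 genes (12.1%) higher and 2101 (7.2%) lower in DBA/2J veins at an adjusted p under 0.05 (19.3% in either direction). This split moved with the scaling: it was 5428 higher and 1308 lower with libraries scaled to their totals, 2740 and 2868 with quantile normalization, and 1608 and 1937 once the dependence of each library on transcript length and GC content had been taken out (the length and GC correction). Scaling to totals moved the median of all fold changes to 0.19 (log2), against 0.05 as deposited. With the mean of the lens genes as a covariate, 1 gene in all was called higher and 10 lower, and none of the lipid genes named here passed. The lens mean did not overlap between the strains (log2 3.47 to 11.7 in DBA/2J veins, 13.7 to 15.1 in control veins). That fit therefore cannot separate lens level from strain, and no conclusion is drawn from its calls. Of the 8 lipid transport genes, 2 rose (Abca1 and Vldlr) and none fell. That share of 25.0% stood beside 22.4% higher among the 13339 protein-coding genes with a mean of 50 or more, so the number of calls was near the background.

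**Figure D1:**
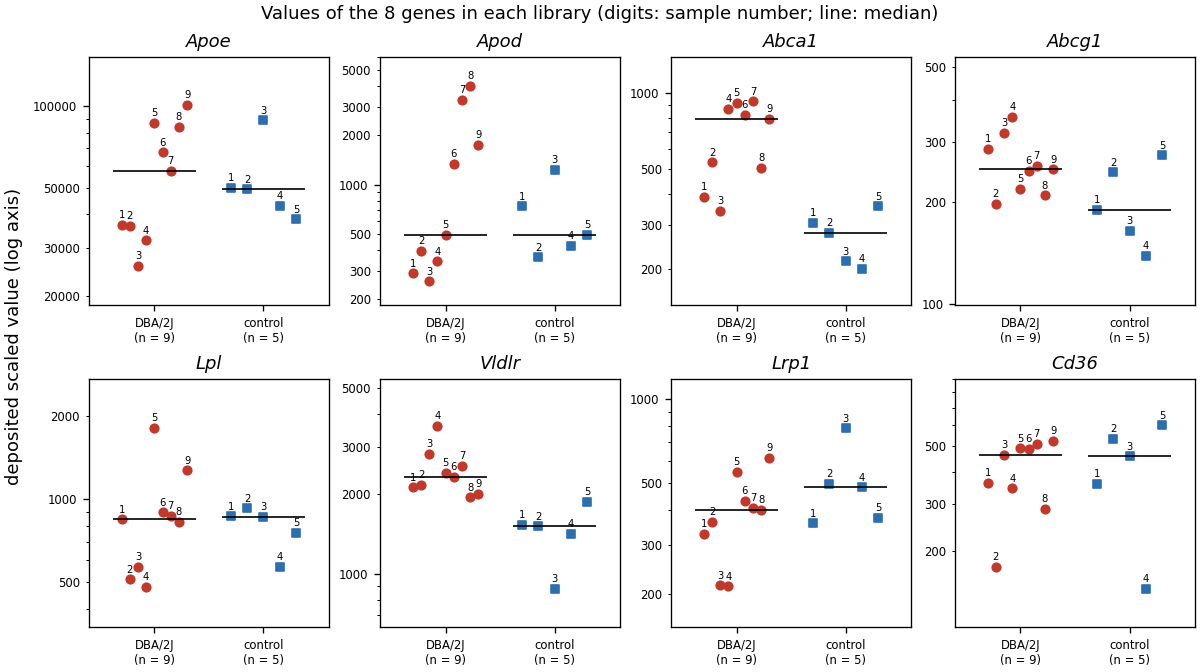
Scaled value (log axis) of the 8 lipid transport genes in each of the 9 DBA/2J libraries (left) and 5 control libraries (right); digits give the sample number and lines the group median. Vldlr lay higher in all 9 DBA/2J libraries than in any control, Abca1 in 8 of 9, and the other 6 genes overlapped widely.

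The promoters of the 2 genes that rose are shown, with the bases before and after the transcription start from RefSeq (GRCm38.p6). Windows of Lrp1 and Cd36, which did not pass the test, also carry letters searched for. Each window runs from 250 bases before a start to 50 bases after it, and the sequences are given 5′ to 3′ on the strand of the gene. Abca1 lies on the minus strand (chr4:53159846-53160145) and the second of 2 listed Vldlr starts on the plus strand (chr19:27216770-27217069). The window of the first Vldlr start, not shown, held no match.

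Abca1: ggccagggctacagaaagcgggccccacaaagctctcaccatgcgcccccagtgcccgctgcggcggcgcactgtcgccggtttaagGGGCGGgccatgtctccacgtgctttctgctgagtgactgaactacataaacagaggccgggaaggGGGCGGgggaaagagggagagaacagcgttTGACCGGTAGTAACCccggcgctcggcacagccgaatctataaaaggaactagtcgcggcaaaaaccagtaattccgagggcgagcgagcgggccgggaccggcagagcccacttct

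Vldlr: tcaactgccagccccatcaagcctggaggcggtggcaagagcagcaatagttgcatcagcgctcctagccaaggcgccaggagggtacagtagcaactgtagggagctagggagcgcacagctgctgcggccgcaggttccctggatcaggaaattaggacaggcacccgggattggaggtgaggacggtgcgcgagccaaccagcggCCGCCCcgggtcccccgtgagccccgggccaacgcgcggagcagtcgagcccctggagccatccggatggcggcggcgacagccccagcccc

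Capitals mark matches to the motifs searched on both strands. The first motif was GGTNA, then any 5 bases, then GGTNA again, a direct repeat of the nuclear receptor site of the kind that liver X receptors, which respond to oxysterols, bind. It was present in 236 of 32851 promoter windows (0.718%), and among the 9 windows listed for 6 of the 8 genes it was found in Abca1 alone. There it read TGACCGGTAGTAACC on the gene's own strand, starting at position -67 from the start. The second motif was the GC box GGGCGG, found in 35.7% of all windows. The Abca1 window held it at -163 and -97, and the Vldlr window held it in reverse complement at -42. Lrp1 had it at -99 and Cd36 at -109 and -93. The third motif, the sterol element TCACNCCAC, occurred in 1.24% of all windows and in none of the 9. The motifs did not overlap each other, and a match describes letters only.

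Apolipoprotein E, the main lipid carrier made by glia and macrophages, was the most abundant of the 8 genes by far and did not pass the test between strains. Its scaled values in DBA/2J veins were 25810 at the lowest, 57819 at the median and 101303 at the highest, against 49981, 49338, 88765, 43014 and 38227 in control veins. The DBA/2J libraries spread on both sides of the controls: 4 of 9 (samples 1 to 4) lay below every control and 1 (sample 9) above every control. The log2 fold change was 0.04 (SE 0.32, 95% interval -0.65 to 0.72, limma adjusted p = 0.952). Apoe took 0.149% to 0.526% of a DBA/2J library and 0.206% to 0.400% of a control library. Among protein-coding genes it ranked between 5 and 39 in DBA/2J veins and between 20 and 34 in control veins. Apoe lies on chromosome 7 (GRCm38, 19696109 to 19699188, minus strand), and its longest annotated coding transcript has 1408 nucleotides.

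Apod encodes apolipoprotein D, a lipocalin that carries small lipids such as arachidonic acid. In DBA/2J veins its scaled values were 258 at the lowest, 496 at the median and 4009 at the highest, against 740.3, 362, 1237, 426 and 496 in control veins. The medians of the strains were close to each other, but the DBA/2J libraries spanned a 15.5-fold range and the controls a 3.42-fold range. DBA/2J samples 6 to 9 lay above every control and 3 DBA/2J samples below every control. The log2 fold change of 0.47 was smaller than its error allowed to be called (SE 0.62, interval -0.83 to 1.77, limma adjusted p = 0.645). Over the DBA/2J libraries Apod was the most variable of the 8 genes, with an SD of 1.55 on the log2 scale. Over the controls its SD was 0.71, below the 0.82 of Cd36. The gene lies on chromosome 16 (GRCm38, 31296192 to 31314808, minus strand).

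Markers of macrophages and microglia varied over the same libraries. The 19 markers of these cells summed to 3501 to 18732 in DBA/2J veins and to 3016 to 5227 in control veins. Of the 19, 7 rose in DBA/2J veins (Ccr2, Cx3cr1, F13a1, Itgam, Ly6c2, Lyve1 and Ptprc), none fell, and none was at 0 in any library. The share higher was 36.8%, with a median log2 fold change of 1.05. For this and the marker lists below, the background of protein-coding genes with a mean of 50 or more was 22.4% higher and 9.23% lower. The 4 DBA/2J libraries below every control for Apoe had marker sums of 3501 to 5484, and the library highest for Apoe (sample 9) had the highest sum, 18732. Sample 5, the second highest DBA/2J library for Apoe (87012), had a sum of 7908, below the 11764 and 11688 of samples 6 and 7, which had less Apoe. For Apod, the 4 DBA/2J libraries above every control had sums of 11688 to 18732. With the mean log2 level of these markers as a covariate, Apoe stood at -0.89 (limma adjusted p = 0.0207) and Apod at -1.44 (adjusted p = 0.0199), the opposite direction. That mean was 6.56 to 9.27 in DBA/2J veins and 6.20 to 6.91 in control veins. Of the DBA/2J libraries, sample 3 alone lay within the control range. The fit with this covariate can therefore hardly separate marker level from strain, and no conclusion is drawn from its calls here or below. In that fit 2494 of all 29166 genes tested were called higher and 2476 lower, against 3518 and 2101 without the covariate. The 14 Müller glial markers summed to 58192 to 142752 in DBA/2J veins and to 57370 to 78551 in control veins, and 5 of them rose and 1 fell. The median log2 fold change of these markers was 0.04, and after the length and GC correction 3 of them were higher and 3 lower. With their mean as the covariate Apoe was -0.35 and Apod -0.23, neither past the threshold. Perivascular fibroblast markers, of which none of 14 passed the test, summed to 4426 to 33734 in DBA/2J veins and to 7931 to 12973 in control veins. In the 4 DBA/2J libraries below every control for Apoe the fibroblast sums were 4426 to 8851 and the pan-endothelial sums 17314 to 24987, lower than in the other DBA/2J libraries. With the fibroblast mean as the covariate Apoe was -0.08, and with the pan-endothelial mean -0.28, neither past the threshold. The 11 astrocyte markers summed to 16463 to 53124 in DBA/2J veins and to 14721 to 29412 in control veins, and 1 of them rose and 2 fell. DBA/2J samples 3, 4, 2 and 1, in order of rising Apoe, lay below every control for it. Their astrocyte sums were 16873, 16463, 23704 and 19203, not in that order. In DBA/2J samples 7, 6, 8, 5 and 9, in order of rising Apoe, the sums were 26316, 30726, 32676, 43583 and 53124. The mean log2 level of the astrocyte markers in samples 7, 6 and 8 was 8.77, 8.91 and 8.71, not in that order. No fit used the astrocyte mean as a covariate. The part of any of these cell types in the apolipoprotein values was not tested.

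**Figure D2:**
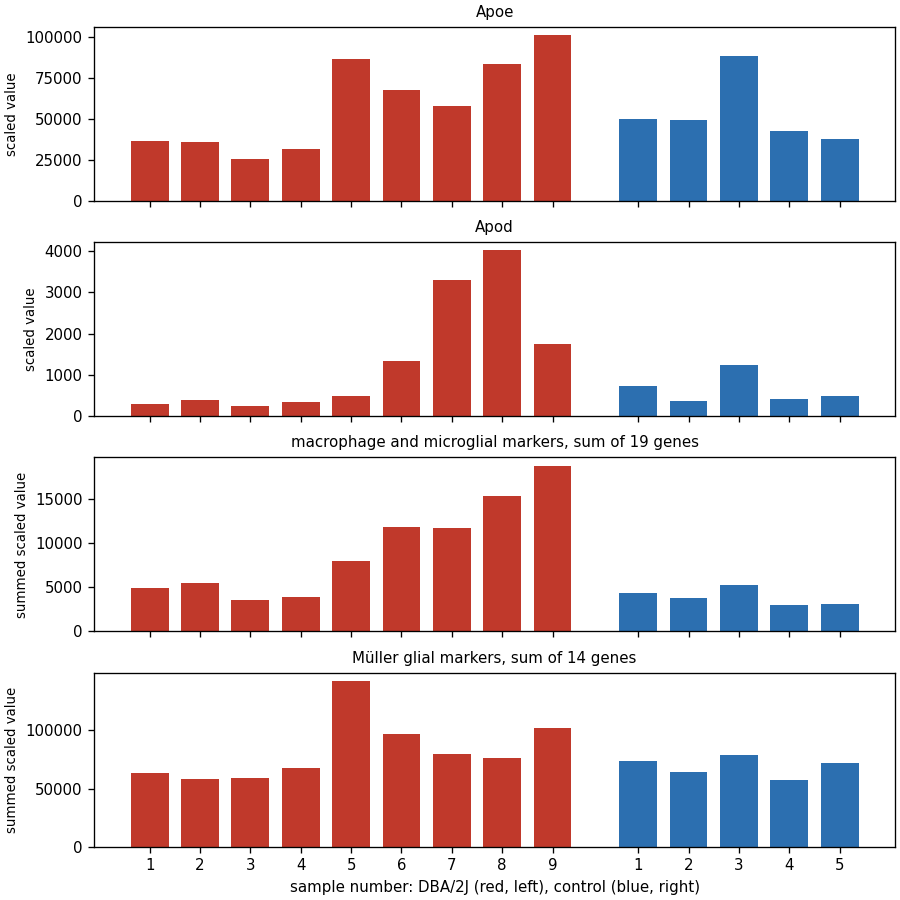
Scaled values of Apoe and Apod and the summed scaled values of 19 macrophage and microglial markers and 14 Müller glial markers, 1 bar per library, DBA/2J at the left and control at the right. The macrophage sums of the DBA/2J libraries run between 3501 and 18732 and those of the controls between 3016 and 5227, and sample 9 is highest for both that sum and Apoe.

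The 23 genes of a list of apolipoproteins gave no common direction. Of the 19 that were tested, 1 rose, 2 fell and 16 did not pass, with a median log2 fold change of -0.05 beside 0.05 for all genes tested and 0.19 for protein-coding genes with a mean of 50 or more. The shares were 5.26% higher and 10.5% lower, beside 22.4% and 9.23% of those protein-coding genes. Saa3, an acute-phase protein that binds lipoprotein particles, rose by 2.12 (SE 0.61, limma adjusted p = 0.0227), with a mean of 80.1 in DBA/2J veins and 12.7 in control veins. Its adjusted p was 0.0534 without control sample 5, it also missed the threshold without control sample 2, and its fold change was 0.38 with the macrophage covariate. Apoo, a protein of the mitochondrial inner membrane in spite of its name, had 1188 to 1691 in DBA/2J veins and 2430 to 4385 in control veins. The log2 fold change of Apoo was -1.01 (SE 0.14, adjusted p = 0.000318), and the groups did not overlap. The other that fell was Apoa1, the main protein of high-density lipoprotein, a gene of low values with a mean below 50.

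Vldlr encodes the VLDL receptor, which binds apolipoprotein E on triglyceride-rich particles and, as a receptor for reelin, signals through Dab1; mice without it form abnormal vessels in the outer retina. In DBA/2J veins its scaled values were 1941 at the lowest, 2319 at the median and 3613 at the highest, against 1530.2, 1509.5, 881, 1418 and 1873 in control veins. All 9 DBA/2J libraries lay above all 5 controls, as 2.91% of the genes tested did; none of the 8 genes lay wholly below, as 2.31% did. The mean was 2439 ± 522 in DBA/2J veins (SD, n = 9) and 1442 ± 358 in control veins (SD, n = 5). Vldlr had a log2 fold change of 0.77 (SE 0.18, interval 0.40 to 1.14, limma adjusted p = 0.00649). The gene lies on chromosome 19 (GRCm38, 27216484 to 27254231, plus strand).

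The call on Vldlr did not hold under every treatment of the data. After the length and GC correction its log2 fold change was 0.33 (adjusted p = 0.131), against the 2 control libraries 4 and 5 alone it was 0.56 (adjusted p = 0.118), and with the lens mean as a covariate it was 0.51 (adjusted p = 0.468). The fit with the lens mean cannot separate lens level from strain. In each fit that left out 1 library the adjusted p stayed between 0.00465 and 0.0213.

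Lrp1 encodes a very large endocytic receptor that takes up apolipoprotein E particles and many proteases, and is abundant in mural cells, macrophages and neurons. Its scaled values in DBA/2J veins were 214 at the lowest, 402 at the median and 616 at the highest, against 359, 497, 785, 483 and 375 in control veins. The groups overlapped, with 3 DBA/2J libraries below every control and none above. Lrp1 had a log2 fold change of -0.37 (SE 0.25, interval -0.90 to 0.16, limma adjusted p = 0.331). It stood at -0.55 after the length and GC correction (adjusted p = 0.0744) and at -0.97 with the macrophage covariate (adjusted p = 0.0111). The mural markers, summed, were 16874 to 43409 in DBA/2J veins and 19913 to 33577 in control veins. The gene lies on chromosome 10 (GRCm38, 127538161 to 127621148, minus strand).

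Among 27 lipoprotein receptors and their adaptors, 26 were tested, of which 8 rose (30.8%), none fell and 18 did not pass, with a median log2 fold change of 0.37. Among protein-coding genes with a mean of 50 or more, 22.4% were higher and 9.23% lower, with a median of 0.19, and the share higher was 35.3% in the bin of the longest transcripts. Sorl1, a sorting receptor that also binds apolipoprotein E, had 223 to 502 in DBA/2J veins and 168 to 216 in control veins, without overlap. Its log2 fold change was 0.85 (SE 0.19, limma adjusted p = 0.00542). The endothelial scavenger receptor gene Stab2 rose by 1.06 (adjusted p = 0.014), and Dab1, the adaptor of Vldlr, by 0.55 (adjusted p = 0.0156). Others that rose included Dab2, Lrp12 and the macrophage scavenger receptor gene Msr1. After the length and GC correction, 1 gene of the list was higher and 2 were lower, with a median of 0.10, and none of Sorl1, Stab2 and Dab1 passed (adjusted p = 0.136, 0.231 and 0.835).

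Abca1 encodes the transporter that hands cholesterol and phospholipid to lipid-poor apolipoproteins, the first step of cholesterol efflux, and is a known target of liver X receptors. Scaled values of Abca1 in DBA/2J veins were 342 at the lowest, 790.3 at the median and 929 at the highest, against 306, 279, 215, 202 and 356 in control veins. DBA/2J libraries were high: 8 of 9 lay above every control, and sample 3 fell between control samples 1 and 5. The mean was 677 ± 234 in DBA/2J veins (SD, n = 9) and 272 ± 64.3 in control veins (SD, n = 5). Of the 8 genes this was the largest fold change as deposited, 1.26 on the log2 scale (SE 0.25, interval 0.73 to 1.79, limma adjusted p = 0.00315). Abca1 lies on chromosome 4 (GRCm38, 53030787 to 53159895, minus strand).

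Abca1 still passed after the length and GC correction (0.81, adjusted p = 0.0237) and with the macrophage covariate (0.92, adjusted p = 0.0445). It did not pass against control libraries 4 and 5 alone (1.25, adjusted p = 0.0549) or with the lens mean as a covariate (0.58, adjusted p = 0.527), a fit that cannot separate lens level from strain. The adjusted p lay between 0.00142 and 0.0127 when 1 library at a time was left out.

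Abcg1 encodes the transporter that passes cholesterol on to mature high-density lipoprotein, and is also a known target of liver X receptors. Abcg1 had scaled values in DBA/2J veins of 197 at the lowest, 249.6 at the median and 356 at the highest, against 189.8, 245, 165, 139 and 274 in control veins. The groups overlapped, although 3 DBA/2J libraries lay above every control and none below. For Abcg1 the log2 fold change was 0.38 (SE 0.19, interval -0.03 to 0.78, limma adjusted p = 0.182), and -0.14 after the length and GC correction (adjusted p = 0.684). Abcg1 lies on chromosome 17 (GRCm38, 31057675 to 31117988, plus strand).

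Of 30 genes of cholesterol efflux and liver X receptor targets, all were tested, 10 rose (33.3%), none fell and 20 did not pass, with a median log2 fold change of 0.29, beside 22.4% higher, 9.23% lower and a median of 0.19 among protein-coding genes with a mean of 50 or more. Scd2, a fatty acid desaturase, had a mean of 9437 in DBA/2J veins and 4803 in control veins (log2 fold change 1.07, SE 0.23, limma adjusted p = 0.00419). Abca7 and Abcg4, relatives of Abca1 and Abcg1, rose by 0.87 and 0.80 (adjusted p = 0.00482 and 0.00531), and Abcg4 did not overlap between the strains. Ch25h makes 25-hydroxycholesterol, an oxysterol. It ranged over 265 to 2406 in DBA/2J veins and 119 to 293 in control veins, a log2 fold change of 2.16 (SE 0.47, adjusted p = 0.00533) that was 0.88 (adjusted p = 0.149) with the macrophage covariate. The others that rose were Lpcat3, Myo1e, Rxra, Soat1 and Lcn2, and Lcn2 encodes a lipocalin of the acute phase that is not a lipid transporter. After the length and GC correction, 4 of the 30 were higher and 3 lower, with a median of 0.24. Scd2, Abca7 and Abcg4 then did not pass (adjusted p = 0.0586, 0.0787 and 0.128).

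**Figure D3:**
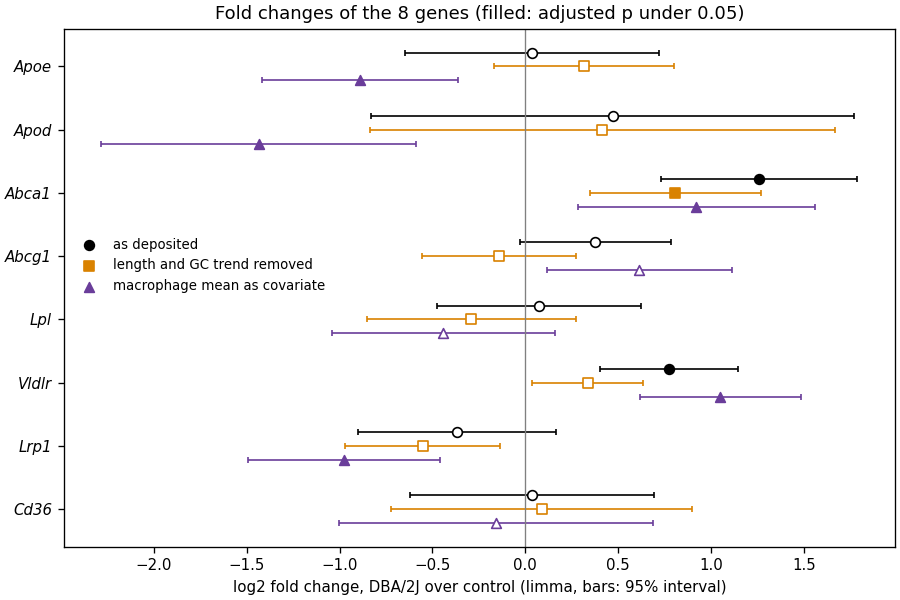
Log2 fold change (DBA/2J over control) of the 8 lipid transport genes with 95% intervals from limma, as deposited (circles), after the length and GC correction (squares) and with the macrophage marker mean as a covariate (triangles); filled symbols passed an adjusted p of 0.05. Abca1 passed in all 3 fits shown, Vldlr in 2, and Apoe, Apod and Lrp1 were lower past the threshold with the covariate alone. The covariate hardly overlapped between the strains, so that fit can hardly separate marker level from strain.

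Lpl encodes lipoprotein lipase, which works on the vessel wall after Gpihbp1 has carried it across the endothelium. Lpl had scaled values in DBA/2J veins of 480.2 at the lowest, 844 at the median and 1814 at the highest, against 866, 924, 860.5, 567 and 754 in control veins. The DBA/2J libraries lay on both sides of the controls, 2 above all of them and 2 below. The difference was 0.07 on the log2 scale (SE 0.26, interval -0.48 to 0.62, limma adjusted p = 0.878). Lpl lies on chromosome 8 (GRCm38, 68880491 to 68907448, plus strand).

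Of 21 genes of the lipase system, 20 were tested, 4 rose (20%), 1 fell (5%) and 15 did not pass. The median log2 fold change was 0.24. For protein-coding genes with a mean of 50 or more, the background was 22.4% higher, 9.23% lower and a median of 0.19. Sel1l, a protein of the endoplasmic reticulum needed for the folding of lipoprotein lipase, had 1024 to 1660 in DBA/2J veins and 358 to 789 in control veins. Its log2 fold change was 1.08 (SE 0.18, limma adjusted p = 0.00135), with no overlap. Furin, a protease that cleaves lipases and their inhibitors, rose by 0.98 (adjusted p = 0.00585), and by 0.62 with the macrophage covariate (adjusted p = 0.104). Angptl4, a secreted inhibitor of lipoprotein lipase, had a mean of 143 in DBA/2J veins and 366 in control veins. Angptl4 was the gene that fell, by 1.37 on the log2 scale (SE 0.27, adjusted p = 0.00295), and the groups did not overlap, though against controls 4 and 5 alone the adjusted p was 0.142. Endothelial lipase, Lipg, rose by 1.64 (adjusted p = 0.0382), a call lost in 9 of 14 fits that left out 1 library. Its log2 fold change was 1.01 without control sample 1 (adjusted p = 0.0889) and 2.08 without control sample 2 (adjusted p = 0.0131). Gpihbp1, a gene of low values with a mean below 50, was the other gene that rose.

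Cd36 encodes a scavenger receptor that takes up long-chain fatty acids and oxidised lipoproteins in capillary endothelium, macrophages and adipocytes. Its scaled values in DBA/2J veins were 174 at the lowest, 463 at the median and 525 at the highest, against 359, 532, 457, 143 and 600.0 in control veins. Every DBA/2J library lay within the range of the controls. The log2 fold change was 0.04 (SE 0.31, interval -0.62 to 0.69, limma adjusted p = 0.953). Cd36 lies on chromosome 5 (GRCm38, 17781690 to 17888801, minus strand).

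All 28 genes of fatty acid uptake and binding were tested, 7 rose (25%), 5 fell (17.9%) and 16 did not pass. The median log2 fold change was 0.21. The background of protein-coding genes with a mean of 50 or more was 22.4% higher, 9.23% lower and a median of 0.19. Of the list, the largest fold change was that of Fabp5, a fatty acid binding protein of lens, glia and endothelium. Its values were 1233 to 5410.2 in DBA/2J veins and 9569 to 26990 in control veins, a log2 fold change of -2.63 (SE 0.34, limma adjusted p = 0.00021). Fabp4, found in endothelium and adipocytes, fell by 1.68 (adjusted p = 0.00366), and 4 of the 8 adipocyte markers tested were lower in DBA/2J veins as well (Cfd, Cidec, Pck1 and Plin1). The adipocyte markers summed to 181 to 468 in DBA/2J veins and to 353 to 1142 in control veins. Fabp5 and the 17 lens genes moved in the same direction. The part of lens and fat cells in these 2 values was not tested. Vegfb, a growth factor of the VEGF family, fell by 0.72 (adjusted p = 0.00506, and 0.0544 after the length and GC correction), and Acsl3, which activates fatty acids for lipid droplets, rose by 1.48 (SE 0.22, adjusted p = 0.000572).

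Of 25 genes of cholesterol synthesis, 5 rose (20%), 2 fell (8%) and 18 did not pass, with a median log2 fold change of 0.33. Beside this, protein-coding genes with a mean of 50 or more were 22.4% higher and 9.23% lower, with a median of 0.19. Lss and Hsd17b7, enzymes of the pathway, rose by 1.20 and 1.18 (limma adjusted p = 0.000895 and 0.00421). Fdps, which makes farnesyl diphosphate, fell by 0.61 (adjusted p = 0.00709), with 1398 to 2323 in DBA/2J veins and 2545 to 3519 in control veins. After the length and GC correction Lss and Hsd17b7 passed, and Fdps did not (adjusted p = 0.0626). Of the further genes named from the 6 lists, 5 (Acsl3, Apoo, Fabp5, Lss and Sel1l) passed in every alternative run other than the lens covariate.

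**Figure D4:**
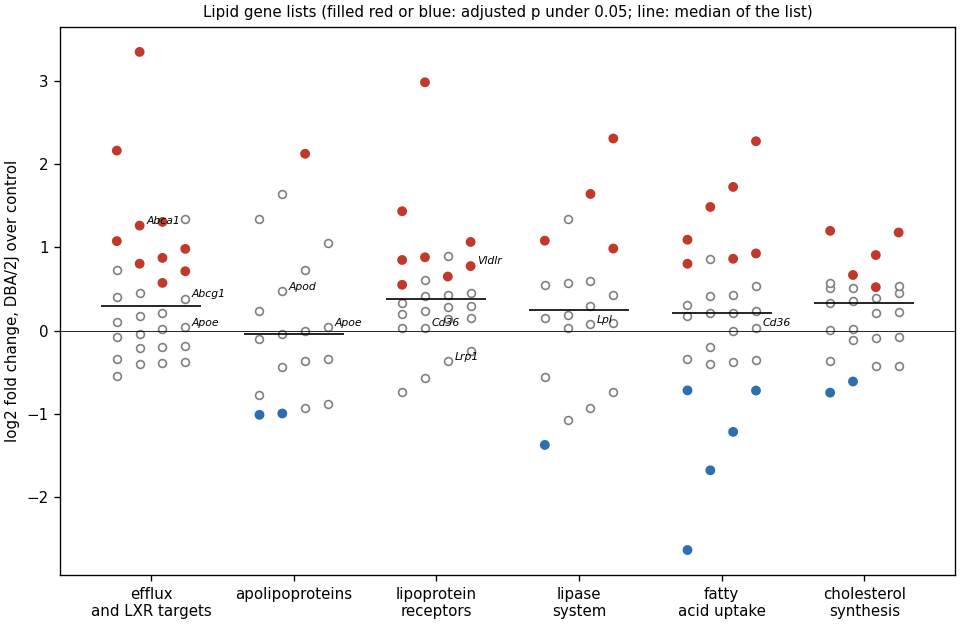
Log2 fold change (DBA/2J over control) of every tested gene of 6 lipid gene lists; filled red and blue points passed an adjusted p of 0.05 higher or lower in DBA/2J veins, and bars mark list medians. The list medians lie between -0.05 and 0.37, and most genes of each list are open points.

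The fold changes of the 8 genes were read against transcript length, since fold changes over all genes moved with it. Protein-coding genes with a mean of 50 or more were placed in 10 bins of equal size by length. The shortest bin (204 to 1308 nucleotides) had a median of -0.51 on the log2 scale, with 1.20% of genes higher and 45.5% lower in DBA/2J veins. In the longest (6866 nucleotides or more) it was 0.44, with 35.3% higher and 4.27% lower. Abca1 (10262 nucleotides), Vldlr (7971) and Lrp1 (14888) were all in the longest bin, where Abca1 and Vldlr were above the bin median and Lrp1 below it. Apoe was in the second shortest bin, with a median of -0.21. Abcg1 (5832 nucleotides), Lpl (4115) and Cd36 (3399) lay below the medians of their bins, which were 0.56, 0.46 and 0.36.

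**Figure D5:**
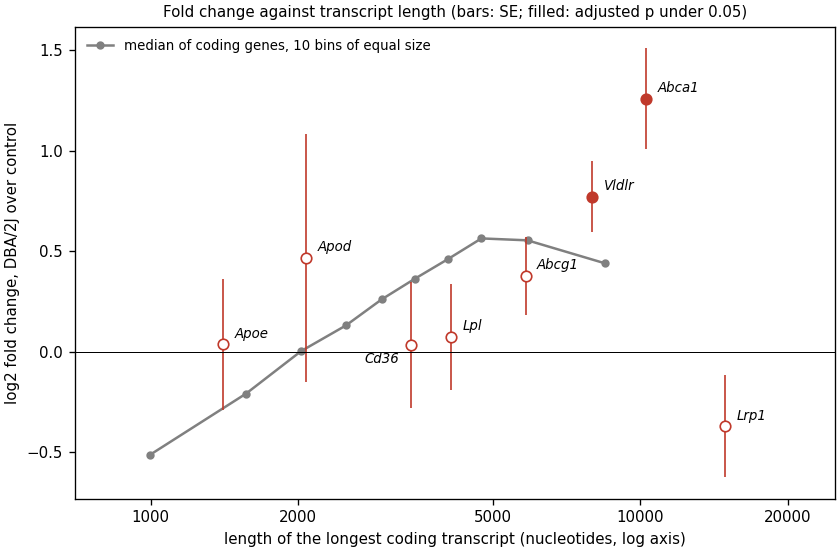
Log2 fold change (DBA/2J over control, bars SE) of the 8 lipid transport genes against transcript length in nucleotides (log axis), with the median of 10 equal bins of protein-coding genes in grey; filled points passed an adjusted p of 0.05. The grey medians run between -0.51 in the shortest bin and 0.56 in the eighth and ninth bins and are 0.44 in the longest, and Abca1, at 1.26, stands above them.

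Per kilobase of transcript, Apoe had a median of 41065 scaled units in DBA/2J veins and 35041 in control veins. In DBA/2J veins the median levels per kilobase of the others were 291 for Vldlr, 239 for Apod, 205 for Lpl, 136 for Cd36, 77.0 for Abca1, 42.8 for Abcg1 and 27.0 for Lrp1. In control veins they were 239 for Apod, 209 for Lpl, 189 for Vldlr, 134 for Cd36, 32.5 for Abcg1, 32.4 for Lrp1 and 27.2 for Abca1. Apoe stood far above every other gene in every library. In control veins the ranges of Abcg1, Lrp1 and Abca1 overlapped, and so did those of Apod, Lpl and Vldlr, although the median of Apod was above the highest value of Lpl and of Vldlr.

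The pattern of each gene over the 14 libraries was also compared with that of 13331 other protein-coding genes, by the root mean square difference of log2 values centred on their means, where 0 would be the same pattern. Vldlr was nearest to Trim2 (0.123) and Rbbp5 (0.131), and Abca1 to Etv6 (0.242) and Ndst1 (0.251). Abcg1 was nearest to Clstn3 (0.157) and Tmem237 (0.166), Apoe to Tax1bp3 (0.192) and Efemp2 (0.208), and Lrp1 to Hdac7 (0.181) and Gmpr (0.195). Lpl was nearest to Laptm4a (0.203) and Efs (0.222), Cd36 to Gnb1l (0.345) and Zkscan14 (0.346), and Apod to Lst1 (0.420) and Cd200 (0.500). Among the 8 genes themselves the closest pair was Abcg1 and Vldlr (0.307), followed by Apoe and Lrp1 (0.340). Apod had no near neighbour in the group, the closest being Apoe (0.910).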

How the data were processed

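Retinal vein RNA of about 100 pg per sample was amplified with SMART-Seq v4 and sequenced on an Aviti instrument, per the labels' protocols. The deposited signal values hold 1 number per gene symbol and library. From the steps between low values, they were taken to be estimated counts from kallisto divided by 1 factor per library. The making of the factors was not given in the sources used here. The series design text names GRCm38 with GENCODE, while GRCm39 appears beside kallisto and sleuth in the submitters' processing notes, and the build used was not settled. Between 19.2% and 22.2% of the values of a library came out as whole reads (tolerance 0.01), so reads were not recovered and no count model was run; depth is an estimate from the steps between low values.

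Of 40149 rows, 26 whose symbols had become dates were left out (at most 0.201% of a library). Genes with a value of 1 or more in at least 5 libraries were kept. Log2(value + 1) was fitted on strain with limma 3.58.1 (R 4.3.3, trend), with Benjamini-Hochberg adjustment over 29166 genes. A fold change on this scale understates that of low genes. The fit was tested on simulated data. Replicates are separate mice, numbered as in the sample titles. Transcript length, GC content and coordinates came from GENCODE M21 (GRCm38), and promoters from RefSeq; Abcg1 and Lpl have no promoter shown. The length and GC correction subtracted, per library, a spline of 5 degrees of freedom on each. The 8 genes, the gene lists and the cell markers were chosen with earlier results of these data known. Named genes were the 8, up to 4 further genes per lipid list with the lowest p among those past the threshold with a mean of 50 or more, and the 2 nearest genes by pattern to each; other called genes of a list, where named, are given without values, and some genes the rule picks are not reported here. Alternatives changed the pseudocount, filter, scaling, weights, covariates and the libraries included.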

Additional observations from a re-analysis of the deposited data

Results flagged for a closer look

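Among the 16 groups of values examined (8 genes in 2 strains), 1 library stood apart from its group: Apoe in control sample 3 had 88765, against 49981 in the next highest control. On scaled values the gap was 0.767 of the range of the 5 controls, above the critical value of 0.71, and chance flags about 1 in 20 such groups. The fits used log2 values, where this library had 16.44, the next highest control 15.61 and the lowest control 15.22. The rule was not run on that scale, so the flag holds for scaled values alone. Control sample 3 was also the highest of the controls for Apod (1237), Lrp1 (785) and the macrophage and microglial marker sum (5227), and the lowest for Vldlr (881). So it was for the pan-endothelial (38587), mural (33577), fibroblast (12973), Müller glial (78551) and astrocyte (29412) sums, where it was the highest control. Of the 14 libraries, it had the lowest slope of log2 value on log2 transcript length (-0.28). The part of cell content or length in these values was not tested. Without control sample 3 the log2 fold change of Apoe was the highest of the fits that left out 1 library, 0.23.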

How the results depend on the processing

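Abca1 and Vldlr had positive fold changes in every alternative run, and passed the threshold in all but 2 (Abca1) and 3 (Vldlr) of them, given beside each gene; without DBA/2J samples 1 and 4, the shallowest libraries (chosen after seeing the data), the 2 calls held. Lens RNA, library numbering and strain moved together. Adipocyte marker sums overlapped between the strains (181 to 468 in DBA/2J veins, 353 to 1142 in control veins). Depth was estimated, and the numbers of the samples did not pair them: correlations of same-numbered samples lay between -0.151 and 0.0234. The cause of each change listed here was not tested.

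Genes called higher were 3518; they were 5428 with library totals, 1608 after the length and GC correction, 1 with the lens covariate, 2334 against controls 1 to 3, 1673 against controls 4 and 5, and 1408 with a replicate block. Genes called lower were 2101; they were 1308 with totals, 10 with the lens covariate, 1373 against controls 1 to 3, 773 against controls 4 and 5, and 1057 with the replicate block. Leaving out 1 library gave 2283 (without control sample 3) to 3974 higher and 1247 (again without control sample 3) to 2341 lower. Of the 8 genes, the 2 called higher became 1 after the length and GC correction, 0 with the lens covariate and 0 against controls 4 and 5, and the 0 called lower became 3 with the macrophage covariate. With the macrophage covariate, which can hardly be separated from strain, 2494 genes in all were called higher and 2476 lower.

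Fold changes near 0 changed sign. With the replicate block, DBA/2J samples 6 to 9 had no control of the same number. The strain difference in that fit therefore rested on samples 1 to 5 of each strain. DBA/2J samples 6 to 9 were those above every control for Apod. Apoe was -0.0029 scaled without lens genes and the 50 largest rows, -0.28 with the pan-endothelial, -0.35 with the Müller glial, -0.89 with the macrophage and -0.077 with the fibroblast covariate, -0.19 against controls 1 to 3, -0.38 with the replicate block and -0.080 to 0.23 with 1 library left out; it was 0.61 with quantile normalization (adjusted p = 0.153) and 0.32 after the length and GC correction. Apod was -0.44 with the lens, -0.23 with the pan-endothelial and Müller glial, and -1.44 with the macrophage covariate, and -0.76 with the block. Abcg1 was -0.14 after that correction. Lpl was -0.073 with quantile normalization, -0.29 after it, -0.10 with the pan-endothelial, -0.21 with the Müller glial, -0.44 with the macrophage and -0.015 with the fibroblast covariate, -0.10 against controls 1 to 3, -0.092 with the block and -0.068 to 0.17 with 1 library left out. Cd36 was -0.0044 scaled without lens genes and the largest rows, -0.14 with quantile normalization, -0.043 with array weights, -0.086 with the lens, -0.13 with the pan-endothelial, -0.24 with the Müller glial, -0.16 with the macrophage and -0.0010 with the fibroblast covariate, -0.20 against controls 1 to 3, -0.12 with the block and -0.31 to 0.20 with 1 library left out.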
